A study of Mus musculus with 2 samples.

Results

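The miRNAs numbered miR-6890 to miR-7099 are late additions to the mouse miRNA catalogue, and most are encoded in introns of protein-coding genes. Their 5p arms, the strand cut from the left side of the hairpin, are described here. Members were taken by probe name alone, with 1 number of the range left out, and not by any measured value. The rule found 199 members among 1900 miRNA probes on each array. The study compared epididymal adipose tissue, the fat pad beside the epididymis, of male C57BL/6J mice on a high-fat diet (60% of kcal as fat) and on a normal diet (5% fat). Feeding began at 8 weeks of age and lasted 8 weeks for both groups. Each diet had 1 array, and the labels do not say how many mice gave RNA to it. No test across animals was therefore possible, and every difference below is between 1 high-fat and 1 normal-diet sample.

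Most miRNAs are excised from a longer transcript by the nuclease Drosha and then trimmed by Dicer. Mirtrons skip the first step: a short intron is spliced out, opened and folded into a hairpin that Dicer can cut, so the ends of the intron become the ends of the hairpin. Introns end with the bases AG, the splice acceptor, behind a stretch rich in C and U. A mirtron's 3p arm is thus rich in C and U and its 5p arm, which pairs with it, is rich in G. Either arm can be loaded into an Argonaute protein and then silence messenger RNAs that pair with its seed.

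The reference sequences bore these marks. RefSeq (build GRCm38.p6) held the mature sequence of 175 of the 199 members and the hairpin of 170. Of these 170 hairpins, 157 (92.4%) ended with AG, against 81 of 835 other mouse hairpins (9.70%). The hairpins of members were also shorter, with a median of 66 bases against 82. Only 26 of the 170 began with GU, the splice donor, and 20 had both ends. All 170 lay within the span of a protein-coding gene, 150 of them (88.2%) on the strand of a gene given there, compared with 482 (57.7%) and 343 (41.1%) of the other 835. Exons were not resolved, since only gene spans were used. The label of mirtron-rich miRNAs therefore fits by the acceptor end of the hairpin and by position, and less by the donor end.

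The hairpins of the 4 members with the highest signal show the acceptor end, in capitals below. Mir7005 lies at chr2:180179755-180179823 on the minus strand within Lama5, a laminin chain of basement membranes. Mir6955 lies at chr15:78891840-78891913 on the plus strand within Gga1, a sorting adaptor of the Golgi. Mir7009 lies at chr3:36475461-36475524 on the minus strand within Anxa5, a phospholipid-binding annexin. Mir6968 lies at chr17:26935472-26935539 on the plus strand within Phf1, a Polycomb-associated protein.
Mir7005: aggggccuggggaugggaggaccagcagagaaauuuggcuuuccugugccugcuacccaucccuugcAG
Mir6955: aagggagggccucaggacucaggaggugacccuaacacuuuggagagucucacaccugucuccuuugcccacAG
Mir7009: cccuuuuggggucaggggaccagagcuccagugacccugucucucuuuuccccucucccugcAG
Mir6968: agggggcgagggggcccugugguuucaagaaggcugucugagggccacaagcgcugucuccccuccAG

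The mature 5p arms were rich in G. The median G share was 43.5% in the 175 matched members and 27.3% in 492 other 5p arms on the array, and the median GC share was 59.1% against 50%. A run of 4 G (GGGG) was present in 66 members (37.7%), compared with 10.6% of the other 5p arms. The 3p arms of the same number range were the mirror image, with a median of 72.1% C and U and an AG end in 137 of 176 matched arms (77.8%). The 10 members with the highest signal over both arrays are given next, with the seed (bases 2 to 8, which pair with target RNAs) in capitals.
miR-7005-5p: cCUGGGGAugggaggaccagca
miR-6955-5p: aGGGCCUCaggacucaggagguga
miR-7009-5p: uUGGGGUCaggggaccagagcu
miR-6968-5p: aGGGGGCGagggggcccugugg
miR-7059-5p: aCCGGGGAcugcggcuuucagu
miR-7063-5p: aUGAGAGGugcaggcugagcaca
miR-6909-5p: cAGGGGGGcuggaaugggcacu
miR-6937-5p: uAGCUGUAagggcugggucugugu
miR-6944-5p: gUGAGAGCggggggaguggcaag
miR-6908-5p: uUGCCUGUcagggagagcccca
Of the 175 matched members, 94 (53.7%) had GGG within the seed, against 13.8% of the other 5p arms.

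Signal is given as net signal, the median intensity of a spot minus the trimmed mean of the 896 blank spots of its array. A miRNA counted as detected above the blank mean plus 2 SD, which was 1.58 units above that mean on the high-fat array and 1.87 on the normal-diet array. By this limit 184 of the 199 members were detected on the high-fat array (92.5%) and 177 on the normal-diet array (88.9%). Both arrays detected 176 members, the high-fat array alone detected 8, the normal-diet array alone 1, and neither array 14. Over all 1900 probes, both arrays detected 70.5%, and of the 3p arms of the same numbers 161 of 200 (80.5%). The high-fat array alone detected 171 of the 1900 and the normal-diet array alone 31. More detection on the high-fat array was thus seen over the whole array and was not particular to the members.

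This limit is low, because spots made to bind no mouse RNA often passed it: 16 of 32 negative control spots did so on the high-fat array and 19 on the normal-diet array. These controls reached net signals of 8.72 and 10.3. A stricter limit was therefore added after seeing the data, namely the highest mean plus 2 SD among the 3 negative controls, at 11.74 and 12.96 units. It left 149 members on the high-fat array, 131 on the normal-diet array and 129 on both (64.8%). By the same limit both arrays detected 58 of the 200 3p arms (29%) and 36.4% of all probes. The 5p arms were thus more often above the controls than their partner arms or the array as a whole, a description for which no test was made.

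The median net signal over the 199 members was 30.3 on the high-fat array and 23.1 on the normal-diet array, with quartiles of 11.8 and 88.8 against 7.84 and 63.5. Over all 1900 probes the median was 10.85 and 6.91. A net signal over 100 was reached by 44 members on the high-fat array and by 36 on the normal-diet array. It lay under 10 for 45 and 53 members. The 5 brightest held 39.8% and 39% of the members' summed net signal. Together the members held 7.51% of the net signal of all miRNA probes on the high-fat array and 5.80% on the normal-diet array. The order of the members was nearly the same on both arrays (Spearman's rho 0.977 across 199 members, which share their probes). Signals of different probes also depend on how well each probe binds, so they are no ranking of abundance.

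**Figure D1:**
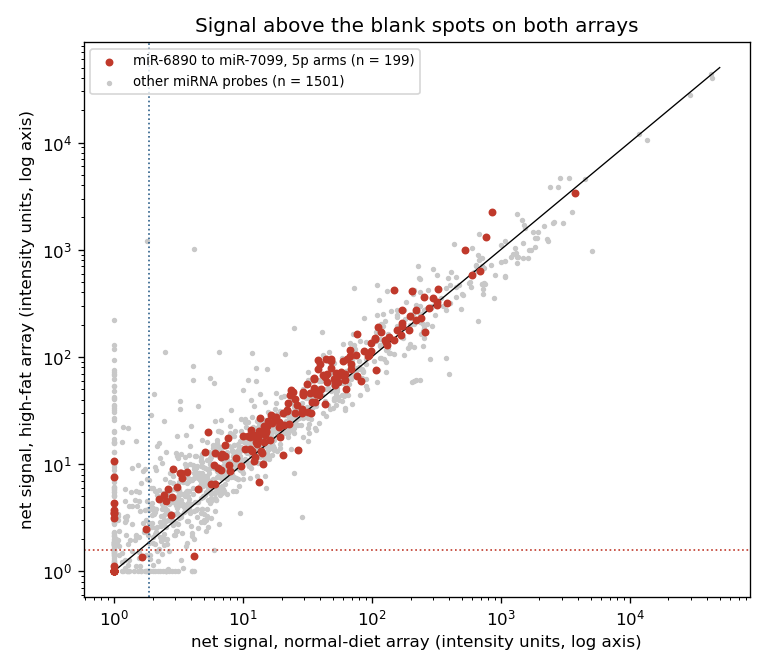
Net signal of every miRNA probe on the high-fat array (vertical, log axis) against the normal-diet array (horizontal, log axis), in intensity units, with values under 1 drawn at 1. The 199 5p arms (red) run near the line of equality but mostly above it, with median net signals of 30.3 (high fat) and 23.1 (normal diet). Other probes are grey (3p arms of the same numbers not drawn), and dotted lines mark the detection limits of 1.58 and 1.87 units.

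The members' signal went with their base composition. Across the 175 matched members, Spearman's rho between G share and net signal was 0.54 on the high-fat array and 0.51 on the normal-diet array, and with GC share it was 0.58 on both. The points share their array. In 492 other 5p arms the rho with G share was 0.29 on both arrays. Members with a G share of at least 50% (n = 54) had a median net signal of 75.1 on the high-fat array and 46.8 on the normal-diet array. Those with a G share of 30 to under 40% (n = 47) had 10.7 and 8.82. Of the 8 members with under 30% G, 2 were detected on both arrays. Whether this relation reflects the amount of RNA or the binding of the probe was not tested.

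**Figure D2:**
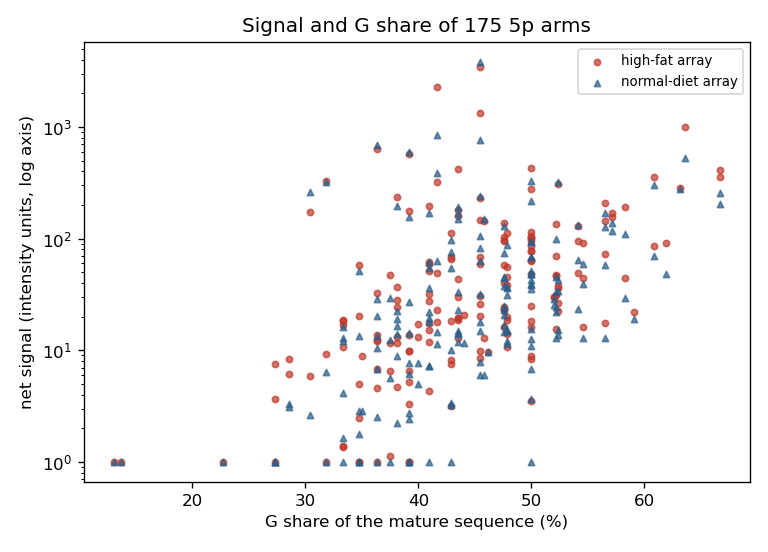
Net signal (vertical, intensity units, log axis, values under 1 drawn at 1) against the G share of the mature sequence (horizontal, %) for 175 5p arms on the high-fat array (red circles) and the normal-diet array (blue triangles). Signal is higher toward the right on both arrays, with medians of 75.1 and 46.8 at a G share of at least 50%.

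For the comparison of diets, spots were corrected with the normexp method (offset 50), quantile-normalised over all 1900 probes and log2-transformed. The difference is high fat minus normal diet. Repeated control spots within the arrays gave an error for 1 bright spot. The SD of a log2 difference was 0.10 to 0.18 over 5 control probes of 8 spots each. These controls had median net signals of 94.0 to 7541, and the SDs were taken before quantile normalisation. The spread at dimmer spots, where most members lie, was not measured. Nor does the control spread cover differences between animals. In a whole-tissue sample, fewer cells of a type and less RNA per cell cannot be told apart.

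As a group the 5p arms scarcely differed between the diets. Over the 176 members detected on both arrays, the median log2 difference was 0.01, with quartiles of -0.07 and 0.09 and a range of -0.67 to 1.55. It was -0.04 over all 1339 miRNAs detected on both arrays and -0.04 over the 161 3p arms. Of the 176 members, 96 had a value above 0 (54.5%), compared with 35.2% of all detected miRNAs and 35 of the 161 3p arms (21.7%). The count depended on the scaling: 174 members were above 0 with spike controls, 140 with no scaling and 76 with the 75th percentile of all probes. It also rests largely on differences smaller than the spread of control spots. The median of members was above that of all detected miRNAs in all 13 versions of the values that were computed, the original one included. The gap was 0.0124 to 0.253 on the log2 scale. These versions are not separate checks. The 75th-percentile scalings, median scaling, spike controls and no scaling differ by a constant per array, so their gap is 0.0761 by construction. Negative controls as background gave the same gap as the reported values, 0.0492.

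**Figure D3:**
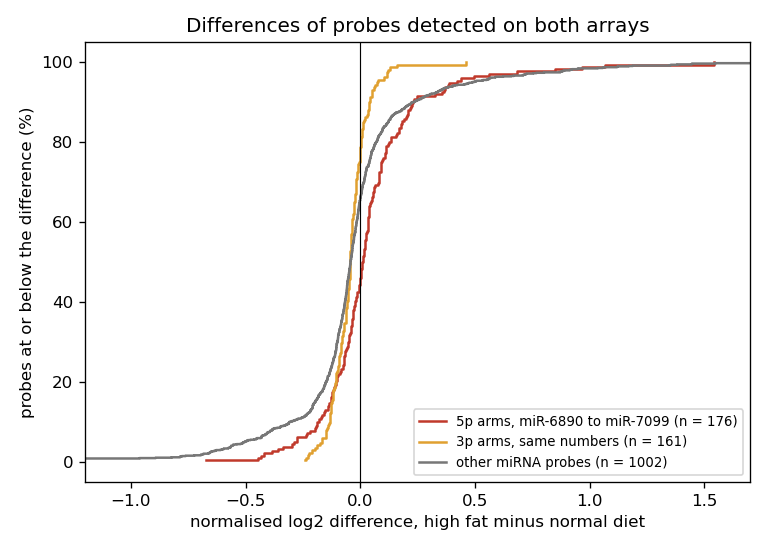
Cumulative share of probes (vertical, %) at or below a normalised log2 difference (horizontal, high fat minus normal diet), for 176 5p arms, 161 3p arms and the other miRNA probes detected on both arrays. The curve of the 5p arms crosses its midpoint at 0.01 and those of the 3p arms and of the other probes at -0.04. Of the other probes, 10 lie beyond the left end of the axis and 2 beyond the right.

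At least 2-fold higher on the high-fat array were 2 of 176 members (1.14%), where the background over all detected miRNAs was 1.27%. None was at least 2-fold lower, against a background of 0.747%. The spread of control spots gives a smaller size: 12 members (6.82%) were higher by more than 2 of the largest control SDs (0.37 on the log2 scale), with a background of 5.75%, and 5 (2.84%) were lower, with a background of 6.8%. The members' shares on the higher side were thus near those of the whole array. Of the 12 higher members, 11 lay in blocks 17 to 32 of the array's print layout, as did 90 of the 176 detected members and 44 of the 77 miRNAs passing the same limit over the whole array. Of the 5 lower members, 4 lay in the same blocks, as did 42 of the 91 lower miRNAs over the whole array. Of the 10 brightest members, 8 lay there too. The part of spot position in these differences was not tested. The median difference of members was 0.00307 in blocks 1 to 16 and 0.02 in blocks 17 to 32.

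The largest difference was that of miR-6955-5p within Gga1. Its net signal was 2256 on the high-fat array and 852 on the normal-diet array, and the normalised log2 difference was 1.55. It was 1.60 by plain subtraction of the blanks and 1.15 by the authors' deposited table of values. Scaled to spike controls it was 1.67, and with the local background of each spot 1.92. It thus passed 2-fold under each of these. Plain subtraction has no offset but was quantile-normalised too, so its values are not the ratios of the net signals. The 3p arm of the same hairpin, miR-6955-3p, was dim, at 13.95 and 7.49, with a log2 difference of 0.05.

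The other member past 2-fold was miR-7033-5p, within Pom121, a gene of the nuclear pore. Its net signal was 423 on the high-fat array and 150 on the normal-diet array (log2 difference 1.07). Plain subtraction gave 1.30, as against 1.24 from the authors' deposited table, but the local background gave 0.05. That background read 450 on the high-fat array and 188 on the normal-diet array at this spot. It was high at bright spots in general: for members with a net signal over 100, its excess over the level at blank spots had a median ratio to net signal of 0.553 and 0.533. The level at blank spots was 63.0 and 64.4, so the ratio at this spot was above those medians on both arrays. Why it was higher here was not tested. The partner miR-7033-3p had 61.5 and 66.3 units and a log2 difference of -0.19.
miR-7033-5p: uCUCCAGGagucugaggggcagg

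A further 4 of the brighter members followed on the high-fat side, where a brighter member is one with a mean net signal of at least 15.96, the median over all miRNAs detected on both arrays. miR-6968-5p had a net signal of 994 against 532 (log2 difference 0.97), and miR-7009-5p had 1322 against 771 (0.85). miR-7045-5p, within the chromatin remodeller gene Chd4, had 413 against 206 (0.68). miR-6953-5p had 165 against 76.2 (0.56). All 4 were higher on the high-fat array, yet the local background gave miR-6968-5p 0.08 and miR-7009-5p -0.13. In the authors' deposited table these 2 were at 0.64 and 0.52.
miR-7045-5p: aGCGGGUGggggagggggacu

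On the lower side, miR-7090-5p was the most different member. It lies within Ctnnb1, which encodes the adhesion and Wnt signalling protein beta-catenin, and had a net signal of 172 on the high-fat array and 259 on the normal-diet array (log2 difference -0.67). miR-6913-5p, within Dohh, had 59.1 against 82.7 (-0.45), and miR-6917-5p had 76.0 against 108 (-0.43). These stayed below 0 in the authors' deposited table as well, at -0.85, -0.74 and -0.76. With the local background they were at -0.47, -0.07 and -0.88. With spike-control scaling they stood at -0.16, 0.04 and -0.01, so the direction of miR-6913-5p rests on the scaling.
miR-7090-5p: uCUCAGAGuugggacaccaugag

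Next came miR-6937-5p, which lies within the span of Adi1 on the other strand, with 322 against 387 (-0.42). miR-6918-5p, within the mitochondrial gene Nipsnap1, had 13.6 against 27.0 (-0.38). It was dim enough for the offset to matter: plain subtraction gave -1.45 and the authors' deposited table -1.24. miR-7005-5p, the brightest member, had 3418 against 3785 (-0.36), or -0.40 in the authors' deposited table. With spike-control scaling these 3 were at 0.09, 0.04 and 0.17, and with the local background at -0.97, -0.16 and -0.70.

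**Figure D4:**
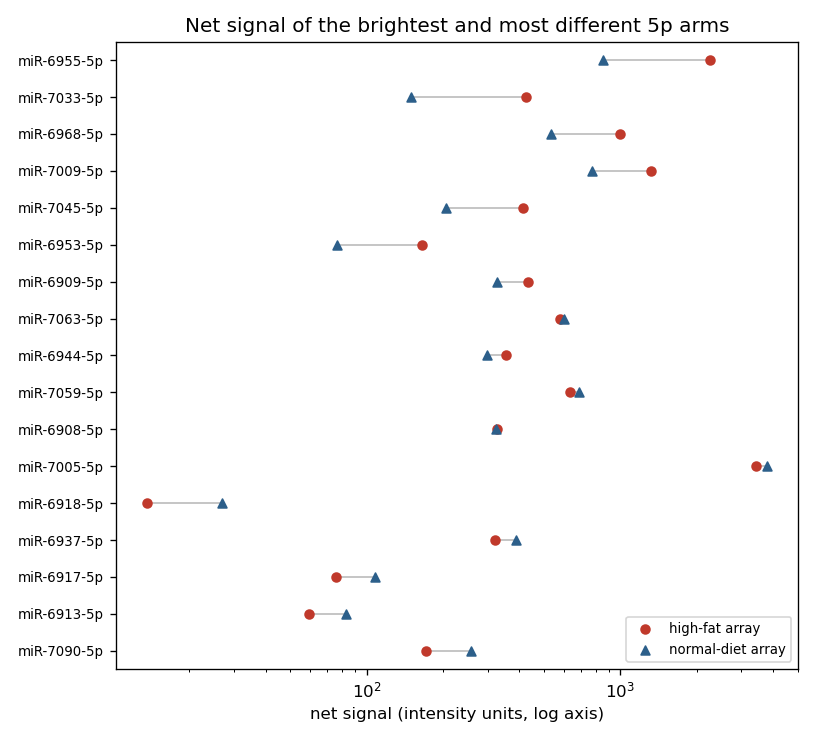
Net signal (horizontal, intensity units, log axis) of the 17 brightest and most different 5p arms on the high-fat array (red circles) and the normal-diet array (blue triangles), ordered by normalised log2 difference with the highest at the top. miR-6955-5p and miR-7033-5p stand furthest to the right of their normal-diet values, and miR-7090-5p at the bottom lies to the left of its own.

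The remaining bright members differed less. miR-7059-5p, within the lysosomal gene Cln3, had a net signal of 633 on the high-fat array and 690 on the normal-diet array (log2 difference -0.05). miR-7063-5p, within the clathrin adaptor gene Ap2a2, had 579 against 602 (0.06). miR-6909-5p, within Plpp2, had 433 against 326 (0.14). These 3 differences lie within the spread of control spots. With the local background they were -0.65, -0.67 and -0.48, so the sign of miR-7063-5p and miR-6909-5p turned. In the authors' deposited table they were -0.38, -0.31 and 0.16, so the sign of miR-7063-5p turned there too. miR-6908-5p, within Pdxk, had 328 against 323 (-0.24). miR-6944-5p, within the actin-binding drebrin gene Dbn1, had 355 against 299 (-0.03), but 1.53 with the local background, which read 116 on the high-fat array and 313 on the normal-diet array at this spot.

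The number of members past 2-fold depended on the processing. Plain subtraction put 4 members at least 2-fold higher (background 4.78%) and 4 lower (background 6.8%). Spike-control scaling put 6 higher (background 3.36%) and none lower (background 0.373%). By the authors' deposited table, higher members numbered 8 (background 7.54%) and lower ones 3 (background 4.63%). With the local background 2 were higher (background 1.79%), miR-6955-5p and miR-6944-5p, and none lower (background 1.34%). The members' shares were below these backgrounds in each case but spike-control scaling on the higher side, at 3.41%.

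**Figure D5:**
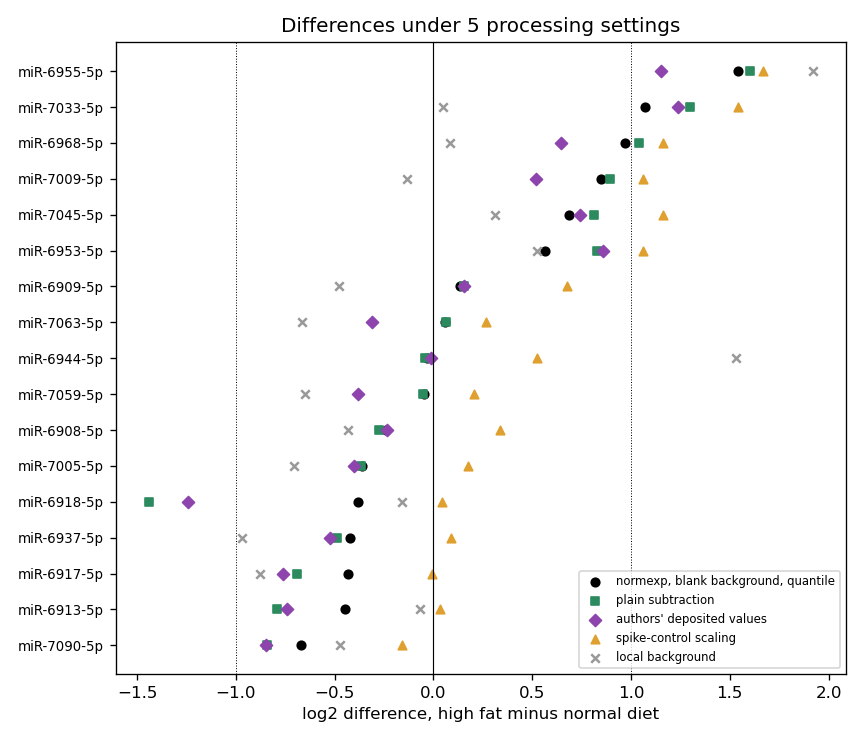
Log2 difference (horizontal, high fat minus normal diet) of the same 17 5p arms under 5 ways of processing, with dotted lines at 2-fold in each direction. miR-6955-5p lies past 2-fold under all 5, whereas miR-7033-5p falls to 0.05 with the local background and miR-6944-5p reaches 1.53 only there.

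Among members detected on 1 array, every bound on the normalised scale was near 1. miR-6946-5p had a net signal of 10.7 on the high-fat array and -0.48 on the normal-diet array. On the normalised scale it was higher by a factor of at least 1.11. The next bounds were 1.06-fold for miR-7093-5p (7.59 against 0.372), 1.01-fold for miR-6960-5p (4.37 against 0.127), 1.004-fold for miR-6948-5p (3.70 against 0.490) and 1.002-fold for miR-7066-5p (3.53 against 0.262). The 1 member detected only on the normal-diet array, miR-6936-5p within the sirtuin gene Sirt7, had 1.39 against 4.18 and was at least 1.08-fold lower. These 6 lay under the limit set by the negative controls. The offset of 50 holds such bounds near 1, so they cannot show a larger difference. In plain subtraction, undetected spots were raised to the detection limit. It put miR-6946-5p, miR-7093-5p and miR-6960-5p at log2 differences of 2.34, 1.83 and 0.998. miR-6948-5p and miR-7066-5p were at 0.741 and 0.683, and miR-6936-5p was at -1.71.

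Because targeting follows the seed, members with the same seed were set side by side. The 175 matched members had 154 distinct seeds. Of these, 18 were shared by more than 1 member, covering 39 members, and 37 members had the seed of some other miRNA on the array. The 3 largest groups are shown in full.
miR-7030-5p: uGGGGAGGuggcugugcuaguc
miR-7075-5p: cGGGGAGGaggacaugguuuu
miR-7076-5p: aGGGGAGGugguauggucuca
miR-6922-5p: uGUGGGAGgggacuguagagagg
miR-6993-5p: aGUGGGAGaaacgggugucuguc
miR-7008-5p: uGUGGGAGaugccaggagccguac
miR-6911-5p: uGGGCUGAgugggucuguggcau
miR-7028-5p: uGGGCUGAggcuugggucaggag
miR-7079-5p: aGGGCUGAggcagugaguccug

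The members with seed GGGGAGG were all higher on the high-fat array. miR-7030-5p, within the endocytic GTPase gene Rab35, had a net signal of 116 on the high-fat array and 68.4 on the normal-diet array (log2 difference 0.36). miR-7075-5p, within the telomere gene Terf2, had 96.6 against 44.1 (0.42), and miR-7076-5p, within Ctrb1, had 94.5 against 38.1 (0.49). With the local background the 3 were at 0.18, 0.13 and 0.24.

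The seed GUGGGAG was mixed. miR-6922-5p, within Srebf1, the gene of the lipid synthesis regulator SREBP, had 73.0 against 58.3 (0.04). miR-6993-5p, on the other strand within the span of the fatty acid desaturase gene Fads1, had 29.9 against 33.6 (-0.22). miR-7008-5p, within Prkci, had 49.8 against 62.9 (-0.33). With the local background these 3 were at 0.19, -0.08 and 0.01. With spike-control scaling they were at 0.49, 0.24 and 0.14, so the lower values rest on the processing. In the normalised values the seed GGGCUGA showed no difference beyond 0.03 in size. miR-6911-5p had 19.8 against 15.1 (-0.02) and miR-7028-5p had 46.02 against 33.4 (0.03). miR-7079-5p, within the ribosomal protein gene Rpl13, had 26.1 against 17.8 (0.02). In the authors' deposited table these 3 were at 0.13, 0.21 and 0.30, and with the local background miR-7028-5p was at -0.12. By the normalised values, the first of the 3 groups alone had all members higher by more than 0.03.

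In the 15 pairs, miR-6965-5p was the only member higher by more than 0.37, and none was lower by more than that. Its value of 0.3714 barely passes 0.3693, and with the local background it was -0.10. It shares the seed GAGGGAG: miR-6965-5p had 96.2 against 48.5 (0.37) and miR-7047-5p had 207 against 171 (0.11). In seed UGAGGGG, miR-7070-5p had 170 against 117 (0.22) and miR-6927-5p had 17.8 against 19.6 (-0.16). In seed UCUGGGA, miR-7019-5p, within the mitochondrial kinase gene Pink1, had 55.8 against 31.3 (0.18) and miR-6907-5p had 51.3 against 35.9 (0.05). Both members of that pair were higher, by little. In seed AGGAGGA, miR-6916-5p had 65.9 against 76.5 (-0.30) and miR-6942-5p had 18.3 against 10.03 (0.08). In seed UGGGGGA, miR-7024-5p had 36.5 against 43.0 (-0.28) and miR-6941-5p, within the Notch ligand gene Jag2, had 58.7 against 45.01 (0.000911). The seed GGAAAGG held miR-7010-5p, at 12.1 against 20.5 (-0.29, or -1.27 by plain subtraction), and miR-7027-5p, at 4.95 against 2.85 (0.00199). In each of these 3 pairs 1 member was lower by more than the spread of control spots and the other was not. All 3 of these lower members were dimmer than the dimmest control probe, at 94.0 and 118 units. With the local background miR-6916-5p was at -0.47, miR-7024-5p at 0.05 and miR-7010-5p at -0.17, so the direction of miR-7024-5p turned.

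The other pairs were closer to 0 or dimmer. In seed CUGGGGA, which miR-7005-5p has, miR-6975-5p had 31.4 against 22.2 (0.02). In seed CCUGGGG, miR-6914-5p had 145 against 149 (-0.17) and miR-6904-5p, within the DNA repair gene Parp1, had 8.62 against 7.90 (-0.07). In seed AGGGAGG, miR-7016-5p had 155 against 137 (-0.04) and miR-6967-5p had 37.0 against 22.4 (0.11). Apart from miR-7005-5p, the members of these pairs lay within the spread of control spots. In seed AGGAGAG, miR-7012-5p had 38.1 against 36.2 (-0.14) and miR-7057-5p had 18.7 against 12.8 (0.02). In seed AGGAAGG, miR-6999-5p had 58.1 against 51.7 (-0.08) and miR-7054-5p had 20.8 against 11.7 (0.08). In seed CCAGGGU, miR-6990-5p, within Esrra, the gene of a nuclear receptor of mitochondrial metabolism, had 28.5 against 16.5 (0.09) and miR-7032-5p had 9.70 against 9.71 (-0.09). Opposite signs this small are within the control spread, which was not measured for probes this dim. In seed CCGGGAG, miR-7034-5p had 16.1 against 14.7 (-0.08) and miR-7071-5p had 13.9 against 11.3 (-0.04). In seed CAGUGGG, miR-6926-5p had 16.1 against 12.9 (-0.03) and miR-7055-5p had 13.2 against 13.96 (-0.12). The last seed, AGGAUGA, belonged to miR-6960-5p and miR-7093-5p, which passed the detection limit on the high-fat array alone.

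Both arms of a hairpin come from 1 precursor, so the 5p arms were set beside their 3p partners. All 199 members had a probe for the 3p arm. In 144 hairpins both arms were detected on both arrays, in 32 the 5p arm alone, in 16 the 3p arm alone and in 7 neither. Over the 144, the median log2 difference was 0.00269 for the 5p arms and -0.04 for the 3p arms, and Spearman's rho between the arms' differences was 0.21, across hairpins that share both arrays. Of the 12 members higher by more than 0.37, 10 had a 3p arm detected on both arrays. Their 3p arms ranged from -0.19 to 0.12, with 4 above 0 and none past the same limit. The 4 detected partners of the 5 lower members ranged from -0.17 to -0.06. Most of these partners were dim, and the offset of 50 holds the differences of dim probes near 0. By plain subtraction miR-6913-3p, at 5.93 against 9.89 units, was at -1.33, beside -0.79 for its 5p arm. miR-6918-3p, at 3.97 against 6.16, was at -1.35, beside -1.45, and miR-6921-3p, at 17.6 against 7.59, was at 0.66, beside 0.73. That scale is quantile-normalised as well, so these values differ from the ratios of the net signals beside them. On it the arms of these 3 hairpins had the same sign.

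The hairpins with the 6 brightest 3p arms behaved differently from one another. miR-7000-3p had a net signal of 1328 on the high-fat array and 1194 on the normal-diet array (log2 difference 0.46), while miR-7000-5p had 11.9 against 7.26 (0.01). miR-7052-3p had 272 against 240 (-0.02) and miR-7052-5p had 104 against 75.1 (0.09). miR-7045-3p had 225 against 200.2 (0.03), beside the 0.68 of its 5p arm. By these normalised values the 3p arm had the larger difference in the first hairpin and the 5p arm in the third. The net signals of miR-7000-3p lie closer together than its 0.46, a value reached after quantile normalisation. The authors' factors put this arm slightly lower on the high-fat array, while miR-7000-5p was at 0.458 in their deposited table. The 5p arm was higher on the high-fat array and its 3p partner lower for Mir7056, where miR-7056-5p had 78.3 against 48.5 (0.23) and miR-7056-3p had 74.5 against 79.4 (-0.22). For Mir7082, miR-7082-5p had 92.0 against 48.7 (0.33, or 0.06 with the local background) and miR-7082-3p had 73.2 against 68.9 (-0.09, within the spread of control spots). For Mir7028, miR-7028-3p had 70.4 against 58.6 (0.01).

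Mouse mirtrons known from earlier small RNA work, outside this number range, gave a comparable picture. Both arms of miR-702, miR-877, miR-1224, miR-1981 and miR-1982 have probes, and all 10 arms were detected on both arrays. Their median normalised log2 difference was 0.01, with 5 above 0 and none past 2-fold in either direction. By plain subtraction miR-702-3p was at -1.36. In the authors' deposited table miR-702-3p was at -1.22, and miR-1981-5p and miR-1982-5p were at 1.34 and 1.025. The absence of members past 2-fold thus depended on the processing. miR-1224-5p had a net signal of 214 against 128 (0.46), and miR-702-3p had 36.1 against 70.5 (-0.66). miR-877-5p, a well-known mirtron product, had 17.3 against 11.3 (0.03).

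Markers of the tissue and of other cells set the frame for these small differences. All 6 adipocyte-linked miRNAs were detected on both arrays, with summed net signals of 3353 on the high-fat array and 6782 on the normal-diet array. Their detection goes with the tissue label but does not by itself identify the tissue. The 7 epididymis and testis miRNAs were all detected on the high-fat array, with a sum of 2820, and 3 of 7 on the normal-diet array, with a sum of 11.9. Each had a net signal of at least 33.0 on the high-fat array and at most 4.16 on the normal-diet array. The 2 endothelial miRNAs summed to 2670 against 4318 and the 4 leukocyte miRNAs to 416 against 794. The 5 epithelial miRNAs summed to 404 against 46.5 and the 3 erythrocyte miRNAs to 1050 against 5534, while the liver marker miR-122-5p stood at 1.14 against 2.01. The part of such other cells in the differences of the 5p arms was not tested. Spike controls had mean log2 differences of -0.31 and -0.33 before scaling.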

How the data were processed

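Total RNA was labelled with Cy5 and hybridised to 3D-Gene miRNA arrays in 1 colour, per the labels' protocols. Per the file headers, each deposited scanner file gives the median intensity of every spot and of the background around it at 635 nm, joined over 3 gains. The authors' deposited table also holds linear intensity values: each equalled the spot's median less the array's blank mean, trimmed by 5% at each end, times 1 factor (1.556 for high fat, 1.858 for normal diet). It lists a miRNA exactly where the spot exceeded the blank mean plus 2 SD. Scanner flags held a single value on each array and were not used.

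Spots were corrected here with limma 3.58.1 (R 4.3.3) by normexp against the trimmed blank mean with an offset of 50, quantile-normalised over 1900 miRNA probes and log2-transformed. The offset shrinks differences of dim probes, so net signals and plain subtraction are given too. Plain subtraction took the net signals, raised to the detection limit where lower, and quantile-normalised them without an offset. Its log2 differences can therefore depart from the ratios of the net signals. The code was run on simulated arrays drawn from the normal-diet signal, with known changes in bright probes only. That run checked the order of the recovered changes and, by plain subtraction, the size of the largest ones. It does not check the differences reported here. With 1 array per diet no test was made, and that number limits the precision: a size rule of 2-fold was used. Brightness here is probe light and not depth of sequencing. Named members are those of a rule: the 10 with the highest mean net signal, those past 2-fold or the 5 largest in a direction without any, the 6 largest in each direction at or above the median signal, the 5 largest bounds among those detected on 1 array, those with a shared seed, those of the 6 hairpins with the brightest 3p arm, and any that background settings put past 2-fold in opposite directions (there were none). The members, lists and rules were chosen with earlier results of these data known. Detection limits and scalings tried as alternatives are in the closing section. Sequences and gene spans are from RefSeq (GRCm38.p6). Strand came from the gene's promoter entry.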

Additional observations from a re-analysis of the deposited data

How the results depend on the processing

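No paired analysis was possible because each diet has 1 array, and for the same reason no replicate could be left out. Members detected on both arrays numbered 171 at the blank mean plus 3 SD, 176 at the 95th percentile of the blanks and 129 at the limit set by the negative controls, which was added after seeing the data. The median log2 difference of members was 0.01 and lies so near 0 that its sign has little meaning: it was -0.0108 and -0.023 when scaled to the 75th percentile of the probes detected on both arrays and of all probes, and 0.424 with spike controls, where all detected miRNAs stood at 0.348. Members at least 2-fold higher numbered 2; they were 4 by plain subtraction, 6 with spike controls and 8 in the authors' deposited values. Members at least 2-fold lower numbered 0; they were 4 by plain subtraction and 3 in the authors' deposited values. Plain subtraction lacks the offset, which by construction spreads dim probes. The authors' values differ in offset and scaling together, so for these and for spike controls the cause was not tested. miR-6955-5p and miR-7033-5p stayed above 0 under the 12 alternatives. Some members past 2-fold elsewhere did not keep their sign: miR-6944-5p was at 1.53 with the local background and -0.03 in the reported values, and miR-6918-5p and miR-7010-5p, at -1.45 and -1.27 by plain subtraction, were at 0.04 and 0.13 with spike controls. Background from the blanks of the same block or from the negative controls, both chosen after seeing the data, moved none of the 57 named members detected on both arrays by more than the control spread of 0.18, while the local background moved 26, plain subtraction 27, the authors' values 31 and spike controls 56.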
